A study of Mus musculus with 2 samples.

Results

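Lens epithelial cells (LECs) that carried much transcript for the replicative helicase and cyclin E, but little histone or mitotic transcript, numbered 1502 of the 21739 barcodes in 2 libraries, with 718 in pool 1 and 784 in pool 2. They were chosen by raw counts of unique molecular identifiers (UMIs, each counted as 1 transcript). A member held at least 6 UMIs summed over Mcm2, Mcm3, Mcm4, Mcm5, Mcm6, Mcm7, Ccne1, Ccne2, Cdc6 and Gins2, under 4 of the histone genes Hist1h1b, Hist1h2ap and Hist1h2ae, under 4 of the mitotic genes Ube2c, Cenpf, Cdc20, Ccnb1, Prc1 and Hmmr, and under 1% of its UMIs from the beta crystallins Cryba2, Cryba4 and Crybb1. Each pool held lens epithelium, still on its capsule when it was peeled from the fiber mass, from 4 to 8 wild-type C57BL/6N pups at postnatal day 2, and the 2 pools are replicates of 1 condition, so that n = 2 throughout. No treatment, mutant or other age was compared here, and the comparisons lie between classes of cells of the same pools.

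Before a cell copies its DNA, the origin recognition complex, Cdc6 and Cdt1 load the ring of Mcm2 to Mcm7 onto origins, and cyclin E with Cdk2, together with Cdc45 and the GINS complex, turns the loaded ring into a moving helicase. E2F transcription factors, held in check by the retinoblastoma family until cyclin D kinases act, switch on many of these genes late in G1. In the lens, dividing cells lie in the epithelium, and cells that leave the cycle at the equator take up the cyclin-dependent kinase inhibitor Cdkn1c (p57) and begin to form fibers.

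Mcm5 and Mcm6, genes of the rule, carry upstream the kind of sequence to which E2F factors are known to bind. The 200 bases upstream of the RefSeq start of Mcm5 (chr8:75109309-75109508, plus strand, GRCm38, the assembly also called mm10) and of Mcm6 (chr1:128359706-128359905, minus strand) are given 5′ to 3′ on the strand of the gene, with matches to TTTCCCGC, TTTCGCGC, TTTGCCGC or TTTGGCGC on either strand in capitals. They are shown because these helicase genes define the cells and because such letters were more frequent before genes that were higher in them than in MCM-low LECs.
Mcm5: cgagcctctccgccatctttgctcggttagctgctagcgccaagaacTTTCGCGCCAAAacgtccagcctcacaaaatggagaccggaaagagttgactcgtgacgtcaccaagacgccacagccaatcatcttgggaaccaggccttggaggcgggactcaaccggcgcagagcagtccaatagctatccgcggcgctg
Mcm6: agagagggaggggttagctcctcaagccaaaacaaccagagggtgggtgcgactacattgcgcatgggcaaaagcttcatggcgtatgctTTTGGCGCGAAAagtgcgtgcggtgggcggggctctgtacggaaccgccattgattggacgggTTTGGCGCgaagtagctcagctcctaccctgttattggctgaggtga
In Mcm5 the capitals join 2 matches on opposite strands that overlap, 142 to 153 bases before the start. In Mcm6 a like overlapping pair lay 99 to 110 bases before the start and another match 40 to 47 bases before it. No exon of GENCODE vM21 overlapped either stretch. A match is a description of letters and not evidence of binding.

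The libraries held 93839132 UMIs in 12314 barcodes (pool 1, median 6307) and 86033032 in 9425 (pool 2, median 8050). Of all barcodes, 20102 lay within the rule's limits on UMIs and detected genes and had at most 15% mitochondrial UMIs, and 19051 of those had at least 2% of their UMIs from the alpha crystallins Cryaa and Cryab and are called lens barcodes. The libraries shared 27 cell barcodes by sequence, 4 of them among the members. Lens barcodes outside the rule were divided with the same thresholds into 11156 MCM-low LECs (under 6 helicase and cyclin E UMIs, and below the other limits), 830 histone-making LECs (4 or more histone UMIs, under 4 mitotic), 1184 mitotic LECs (the reverse), 2126 with both and 2253 beta-crystallin-rich LECs. The helicase and cyclin E genes played no part in setting the histone-making and mitotic classes.

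The members made up 6.52% of the lens barcodes of pool 1 (718 of 11019, 95% exact binomial interval 6.06 to 6.99%) and 9.76% of those of pool 2 (784 of 8032, 9.12 to 10.4%), with a mean of 8.14% and an SD of 2.29 percentage points. The intervals cover counting error only. The share depended on the depth of the cells. It was 0.344% and 0.422% under 3000 UMIs, 11.5% and 17.8% between 7000 and 9000 UMIs, and 3.99% and 5.36% from 12000 UMIs on. Within 6000 to 12000 UMIs it was 10.0% and 12.7%, and after every barcode was thinned to 5000 UMIs it was 5.63% and 6.47%. Members held medians of 6918.5 and 8456 UMIs against 5629 and 7074 in MCM-low LECs. Barcodes with the highest Scrublet scores (8% of each pool, kept in the main counts) made up 11.1% and 14.8% of members against 6.09% and 6.17% of MCM-low LECs, and without them the mean share was 7.66%.

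**Figure D1:**
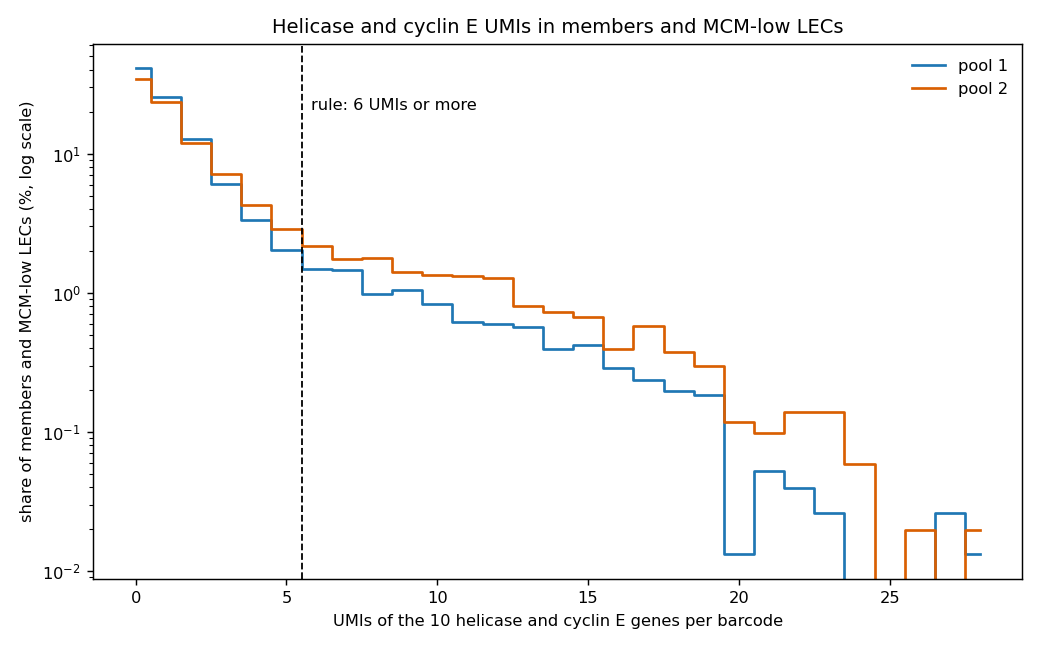
Share of members and MCM-low LECs (y axis, percent, log scale) at each number of UMIs of the 10 helicase and cyclin E genes (x axis), by pool, with the rule's limit dashed. In both pools the share fell steeply from 0 UMIs, held by 3119 and 1753 barcodes, and more slowly to the right of the limit, with no gap at it.

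No gap separated members from other cells at the limits of the rule. In pools 1 and 2, 222 and 198 members held 6 or 7 helicase and cyclin E UMIs, and 405 and 361 cells just outside held 4 or 5, at nearly the same median depth (6584 and 8170 UMIs inside, 6596 and 8015 outside). The histone limit left 81 and 95 members with 2 or 3 histone UMIs against 37 and 39 helicase-rich cells with 4 or 5, and the mitotic limit 70 and 86 with 2 or 3 against 6 and 11 with 4 or 5. The beta crystallin limit touched few cells, with 6 and 10 members at 0.5 to 1% and 8 and 10 such cells at 1% or more. Those members were deep, with medians of 15136 and 16213 UMIs, and held a median of 6 helicase and cyclin E UMIs in each pool.

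Levels are given as CPM, the UMIs of a gene summed over the cells of a class in 1 pool, divided by the class's total UMIs and scaled by edgeR's TMM factors, with pool 1 first. In sums of cells, fewer cells that express a gene and less transcript per cell cannot be told apart. The genes of the rule are described without a test, since they chose the cells. Mcm5, a ring subunit (ENSMUSG00000005410), stood at 124 and 106 CPM in members against 9.42 and 9.04 in MCM-low LECs. Mcm6, its neighbor in function (ENSMUSG00000026355), stood at 194 and 184 CPM against 20.6 and 20.2. Cdc6, which loads the ring, stood at 38.4 and 33.7 CPM against 0.735 and 0.824. For all 3 genes the gap between classes was far larger than that between pools.

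Ccne2, a cyclin E, stood at 33.2 and 25.9 CPM in members against 1.36 and 1.47 in MCM-low LECs, and Ccne1 at 42.9 and 29.3 against 6.39 and 5.56. Gins2, a subunit of the GINS complex, stood at 122 and 133 CPM against 21.0 and 23.1. The ring genes Mcm2, Mcm3, Mcm4 and Mcm7 lay between 116 and 250 CPM in members. In mitotic LECs, for which these genes were not used, Mcm6 stood at 19.3 and 22.2 CPM and Gins2 at 16.1 and 21.3. The ring genes supplied most of the UMIs that the rule counted. Mcm3 gave 19.6% and 17.7% of the members' UMIs of the 10 genes and Mcm7 gave 14.6% and 13.3%, while Ccne2 gave 2.60% and 2.25%.

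**Figure D2:**
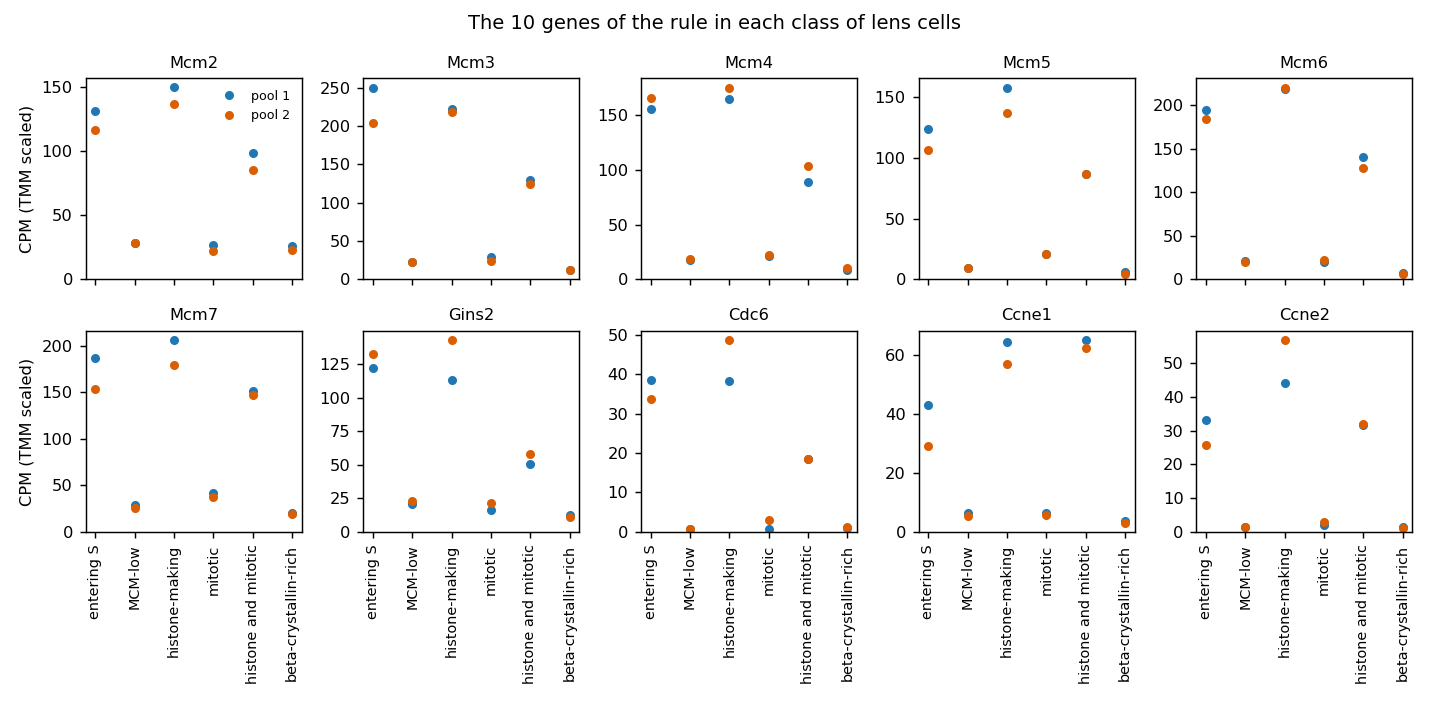
CPM (y axes, TMM scaled, each from 0) of the 10 genes of the rule in 6 classes of lens cells (x axes), 1 point per pool. Members and histone-making LECs both stood well above MCM-low, mitotic and beta-crystallin-rich LECs. Ccne1 and Ccne2 were lower in members than in histone-making LECs in both pools. Cells with both histone and mitotic UMIs lay between for all but Ccne1 and Ccne2, where they reached the level of members or above.

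Lens epithelial identity was checked on genes outside the rule. Pax6, the eye transcription factor, had 341 and 314 CPM in members and 333 and 301 in MCM-low LECs. Cdh1 (E-cadherin) had 107 and 126 CPM in members, and Mab21l1 had 44.1 and 53.5. Foxe3, a lens epithelial factor, was low in members (4.33 and 5.42 CPM) as in MCM-low LECs (3.96 and 6.29).

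Markers of other cell types were summed over each list, without TMM scaling. The 10 endothelial genes reached 102 and 94.7 CPM in members against 101 and 88.5 in MCM-low LECs, and the 10 mural genes 409 and 381 against 377 and 317. The 10 macrophage genes reached 31.1 and 56.5 CPM against 49.7 and 63.6, with C1qa, Ctss and Ptprc at 0. The 7 fibroblast genes reached 104 and 119 CPM with Lum at 0, the 7 corneal genes 19.1 and 22.8 with Krt5 and Krt12 at 0, the 7 pigment cell genes 6.55 and 4.73 with Tyr and Rpe65 at 0, and the 8 retinal or neuronal genes 0.749 and 0.430 with 5 genes at 0. The 8 erythroid genes stood apart at 143 and 624 CPM against 116 and 147 in MCM-low LECs, with 2 of them, Slc4a1 included, at 0. Hemoglobin UMIs sat in few members. In them 1 cell held 701 of the 745 in pool 1 and 4 cells held 4238 of the 4309 in pool 2. In MCM-low LECs 11 and 7 cells with 20 or more held 4289 of 4693 and 4206 of 4492, and their part in the results was not tested. Of 6 erythroid genes tested, 4 were called higher in members than in MCM-low LECs, and 4 likewise against histone-making and against mitotic LECs. Of 7 macrophage genes tested 2 were called lower in members than in MCM-low LECs, Pf4 at 0.519 and 0.271 CPM against 3.81 and 4.92 and C1qa at 0 against 1.20 and 1.19, though without the pool as a block neither passed. The part of these lists in the results was not tested either.

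Against MCM-low LECs, members held more transcript of nearly every gene that copies DNA and less of genes that mark the start of fiber formation. Of 12744 genes tested, 1023 were higher in members (8.03%) and 432 lower (3.39%), where a call needed a log2 fold change of at least 0.5 and a Benjamini-Hochberg adjusted p under 0.05 from edgeR (quasi-likelihood). The median log2 fold change over all tested genes was -0.0148. Because cells were divided by genes that are transcribed together with other replication genes, the direction of the replication lists follows from the choice of cells, and their sizes and order are given as a description. DESeq2 called 190 genes lower in place of 432, and a fit without the pool as a block 259.

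The other parts of the helicase were also higher. Of the 8 helicase partners tested, 7 were higher in members and 0 lower, with a median log2 fold change of 2.53. Mcm10, which helps to open the helicase, had 31.3 and 25.9 CPM in members and 1.11 and 1.16 in MCM-low LECs (log2 fold change 4.65, SE 0.16). Cdc45, which travels with the ring, had 36.0 and 33.5 CPM against 1.56 and 2.26 (4.22, SE 0.14). Mcm9, a ring relative used in repair, had 8.65 and 12.5 CPM against 7.55 and 9.40 and did not pass the test.

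Origin licensing genes divided by subunit. Of 15 tested, 12 were higher and 0 lower, with a median of 1.89. Cdt1, the partner of Cdc6 in loading, had 53.3 and 48.0 CPM in members against 6.44 and 6.04 (log2 fold change 3.02, SE 0.10), and its inhibitor geminin (Gmnn) had 150 and 160 against 12.1 and 12.5 (3.65, SE 0.07). In the origin recognition complex, Orc6 had 130 and 127 CPM against 35.5 and 39.5 (1.77, SE 0.07) and Orc1 had 6.23 and 6.37 against 1.83 and 1.47. Orc3, Orc4 and Orc5 did not pass the test, and their log2 fold changes lay between -0.14 and 0.15.

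Genes of the replication fork were the most uniform list. Of 36 polymerase, clamp and fork genes listed, 35 were tested, and 33 of those were higher and 0 lower, with a median of 2.46. Clspn (claspin, a checkpoint mediator at the fork) had 64.4 and 65.2 CPM in members against 1.76 and 2.17, a log2 fold change of 5.05 (SE 0.10). Pclaf, which binds the sliding clamp, had 254 and 211 CPM against 9.64 and 12.6 (4.40, SE 0.09). The clamp itself, Pcna, had 194 and 216 CPM against 36.7 and 45.8 (2.32, SE 0.06). The catalytic subunit Pole of polymerase epsilon was higher by 3.67 (SE 0.15), the primase Prim1 by 3.63 (SE 0.10) and the ligase Lig1 by 3.46 (SE 0.07). The 2 that did not pass the test were Pold4 (log2 fold change -0.34) and Rnaseh2c (118 and 141 against 95.6 and 122).

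Nucleotide supply rose in part. Of 27 genes tested, 18 were higher and 0 lower, with a median of 0.85. Rrm2, the small subunit of ribonucleotide reductase, had 103 and 81.7 CPM in members against 3.18 and 3.66 (log2 fold change 4.76, SE 0.09), while its partner Rrm1 rose by 2.59 (SE 0.07). Tk1 (thymidine kinase) rose by 3.41 (SE 0.08) and Tyms (thymidylate synthase) by 2.41 (SE 0.08). Genes of the general purine pathway lay lower in the list: Impdh2 had 128 and 116 CPM against 111 and 110, and Nme1 had 317 and 333 against 282 and 327, and neither passed.

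Of the 17 E2F and retinoblastoma family genes, 11 were higher and 0 lower, with a median of 0.94. Among activators, E2f1 had 52.4 and 51.5 CPM in members against 4.08 and 4.49 (log2 fold change 3.60, SE 0.10) and E2f3 had 44.1 and 44.7 against 15.5 and 18.0 (1.40, SE 0.09). The atypical repressor E2f8 was at 12.5 and 9.76 CPM against 0.334 and 0.244 (5.15, SE 0.26). E2f4 and E2f5, repressors of resting cells, had 31.2 and 33.3 CPM against 32.2 and 27.2, and 39.3 and 42.6 against 45.3 and 49.8, and did not pass. Of the pocket proteins, Rbl1 (p107) rose by 2.05 (SE 0.14) and Rb1 by 0.63 (SE 0.15), and Rbl2 (p130) had 7.10 and 8.13 CPM against 6.35 and 6.72.

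Cyclin D genes, which act upstream of E2F, stood high in both classes. Of the 14 G1 and S cyclins, kinases and activators, 8 were higher and 0 lower, with a median of 0.68. Ccnd1 (cyclin D1) had 434 and 432 CPM in members against 318 and 340, a log2 fold change of 0.40 (SE 0.04) that stayed under the size needed for a call. Ccnd2 (cyclin D2) had 714 and 617 CPM against 624 and 583 (0.14, SE 0.04). Between 6000 and 12000 UMIs that difference for Ccnd2 turned to -0.02. The activating phosphatase Cdc25a had 57.1 and 55.6 CPM against 12.8 and 10.6 (2.26, SE 0.09) and Cdk2, the partner of cyclin E, had 22.3 and 21.8 against 7.24 and 6.01 (1.73, SE 0.12). Ccna2 (cyclin A2), which serves later in S phase, was at 16.3 and 11.9 CPM against 3.05 and 3.36.

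Of the 8 genes named as cyclin-dependent kinase inhibitors, 2 were lower in members, Cdkn1c and Cdkn3, and 1 was higher, Cdkn2c. Cdkn3 was near 0 in members (0.865 and 0.407 CPM) and high in mitotic LECs (74.9 and 95.2). Cdkn1c, the inhibitor that marks lens cells leaving the cycle, had 817 and 666 CPM in members against 1817 and 2274 in MCM-low LECs. Each pool's members lay below both MCM-low values, and the log2 fold change was -1.47 (SE 0.07, adjusted p = 5.415e-19 from the edgeR quasi-likelihood fit with Benjamini-Hochberg adjustment). Cdkn2c (p18) had 20.4 and 20.7 CPM against 11.9 and 11.4 (0.82, SE 0.11). Cdkn1b (p27) had 43.3 and 46.5 CPM against 37.3 and 45.1, and the 2 ranges overlapped.

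Genes that rebuild chromatin behind the fork and those that repair it rose with replication. Of 21 chromatin genes, 15 were higher and 0 lower (median 1.28). Uhrf1, which brings the DNA methyltransferase to new DNA, had 112 and 110 CPM against 5.03 and 6.29 (log2 fold change 4.30, SE 0.08), and Dnmt1 itself rose by 2.31 (SE 0.07). Chaf1b, a subunit of the histone chaperone CAF-1, rose by 3.86 (SE 0.10), Atad2 by 4.06 (SE 0.07) and Nasp, a histone chaperone, by 1.71 (SE 0.04). Of 29 repair and checkpoint genes, 24 were higher and 0 lower (median 2.86). Exo1, a repair nuclease, had 32.0 and 30.0 CPM against 0.802 and 0.946 (5.18, SE 0.17), Brca1 rose by 4.68 (SE 0.16), Rad51ap1 by 4.64 (SE 0.12) and Chek1, the checkpoint kinase, by 3.30 (SE 0.10). Ung, which removes uracil from DNA, had 88.8 and 83.4 CPM against 5.17 and 6.59 (3.87, SE 0.11). The checkpoint factor Trp53 (86.5 and 73.2 CPM against 72.5 and 62.3) and its regulator Mdm2 (log2 fold change -0.09) did not pass. The gene with the largest rise at 50 CPM or more was Slfn9, at 51.2 and 61.4 CPM against 1.23 and 1.34 (5.43, SE 0.13).

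Histone genes outside the rule moved in both directions, and near-identical copies among them can share reads, so single histone genes are uncertain. Of 64 listed, 53 were tested, and 11 were higher and 4 lower (median 0.29). Hist1h1a, a linker histone, had 4.67 and 9.49 CPM in members against 1.05 and 2.23 (log2 fold change 2.14). Hist1h2bc had 19.9 and 22.5 CPM against 54.9 and 70.1 (-1.59, SE 0.15). Slbp, which binds histone messenger RNA, was already at 161 and 138 CPM against 66.5 and 56.8 (1.28, SE 0.05). The rule capped 3 histone genes in both of these classes.

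Of 61 mitotic and kinetochore genes, 50 were higher in members than in MCM-low LECs and 3 lower, with a median of 1.79. Cdk1, the mitotic kinase, had 80.1 and 71.8 CPM in members against 10.9 and 11.8 (log2 fold change 2.75) but 519 and 429 in mitotic LECs. Top2a, a topoisomerase, had 98.0 and 82.8 CPM against 7.48 and 8.88 (3.48) and Mki67, the gene of the Ki-67 protein, 25.1 and 17.8 against 10.2 and 12.2 (0.93). The 3 that were lower were Cenpa, the centromeric histone (5.19 and 5.29 CPM against 37.2 and 47.4, log2 fold change -3.01), Ccnb2, cyclin B2 (3.29 and 2.17 against 13.9 and 19.2, -2.63), and Cdca3 (8.31 and 7.18 against 13.5 and 18.5, -1.04). Cdca3 no longer passed within 6000 to 12000 UMIs or after thinning.

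Genes of early and late fiber differentiation were lower in members. The list holds the genes that the study named for its differentiating cells in these same samples, so it is not independent evidence of direction. Of 21 genes, 14 were lower and 0 higher (median -0.74). Abca4, a membrane transporter, had 14.0 and 14.2 CPM in members against 42.4 and 74.7 (log2 fold change -2.05, SE 0.14). Rbm24, an RNA-binding protein of fiber differentiation, had 28.7 and 23.3 CPM against 91.1 and 104 (-1.92, SE 0.10, adjusted p = 1.86e-17 from the edgeR quasi-likelihood fit with Benjamini-Hochberg adjustment). Nnat was lower by 1.81 (-1.81, SE 0.09), Ccdc80 by 1.62 (-1.62, SE 0.10), Adamtsl4 by 1.37 (-1.37, SE 0.12) and Pmp22 by 1.18 (-1.18, SE 0.07). Mip (aquaporin 0; 169 and 157 CPM against 199 and 191), Bfsp2 (267 and 236 against 307 and 314) and Crybb3 (17033 and 15574 against 19139 and 19589) did not pass. The beta crystallin Cryba1 had 1185 and 1252 CPM against 2006 and 2137 (-0.77), and Cryba2, which the rule capped in both classes, 258 and 220 against 545 and 593.

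Of 14 lens transcription factors tested, 3 were lower in members than in MCM-low LECs and 0 higher. The list is not of epithelium alone, since Maf and Prox1 are also known for their part in fiber differentiation. The 3 were Maf, a driver of crystallin genes, at 243 and 204 CPM against 416 and 414 (log2 fold change -0.90, SE 0.05), Gata3 at 16.6 and 9.35 against 36.1 and 38.3 (-1.55, SE 0.14), and Hsf4, at 1.21 and 0.271 against 1.85 and 1.43. Hsf4 lost its call with DESeq2, without the pool as a block, after thinning and without the highest doublet scores. Prox1 had 332 and 340 CPM against 410 and 429 (-0.32, SE 0.04), under the size needed for a call. Of 20 genes the study named for resting epithelium, 1 was lower, Igfbp5 (256 and 200 CPM against 389 and 272, -0.52, SE 0.06), and it did not pass within 6000 to 12000 UMIs, at 8 or more UMIs, or without the pool as a block. Of 22 immediate early genes (median -0.07), 0 were called by edgeR and 0 by DESeq2, and at an unadjusted p under 0.05 in edgeR 5 were higher and 5 lower. Of 16 glycolysis genes (median 0.10), 0 were called by either tool, and at that unadjusted p 9 were higher and 0 lower. At an adjusted p under 0.05 with no limit on size, 1964 genes of the 12744 were higher and 1286 lower.

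Notch genes moved in both directions. Of 15 tested, 4 were higher in members and 1 lower. Hes5, an effector of Notch, had 247 and 389 CPM in members against 157 and 281 (log2 fold change 0.56, SE 0.06), and the pools differed by more than the classes did within a pool. Hes5 no longer passed after thinning (0.48) or without the pool as a block (0.54). The feedback gene Nrarp had 29.4 and 20.6 CPM against 14.5 and 15.4 (0.73, SE 0.11), and kept its call under the alternatives that were tested. Heyl, another effector, had 9.86 and 7.59 CPM against 5.92 and 5.98 (0.54, SE 0.16), and it did not pass with DESeq2, without the pool as a block, within 6000 to 12000 UMIs or at 8 or more helicase and cyclin E UMIs. The ligand gene Jag2 had 2.60 and 3.79 CPM against 1.47 and 1.62 (1.04, SE 0.28) and did not pass with DESeq2. The ligand gene Jag1 had 41.5 and 31.6 against 67.0 and 71.4 (-0.94, SE 0.08). Hes1 had 633 and 752 CPM against 580 and 751 and did not pass.

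Of 26 ribosome biogenesis genes, 6 were higher and 0 lower (median 0.27), among them Nop56 by a log2 fold change of 0.66. Of 22 cholesterol genes, 4 were lower and 0 higher (median -0.33), among them Hmgcs1 (log2 fold change -0.57), which did not pass within 6000 to 12000 UMIs. Of 10 gap junction and channel genes, 3 were higher, Tfrc, the transferrin receptor (34.3 and 30.1 CPM against 19.0 and 19.5), Slc1a5, a glutamine carrier (29.2 and 25.9 against 18.3 and 17.8), and Atp1b1, and 1 was lower, Aqp5, at 0 and 0.271 CPM against 1.29 and 0.824. Atp1b1 did not pass within 6000 to 12000 UMIs or without the pool as a block, nor Aqp5 with DESeq2 or after thinning. Of 19 receptor tyrosine kinase and feedback genes, 2 were lower, Etv5 (5.71 and 4.34 CPM against 9.35 and 11.0) and Spry2 (7.79 and 5.56 against 8.89 and 13.2). Spry2 did not pass without the pool as a block.

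**Figure D3:**
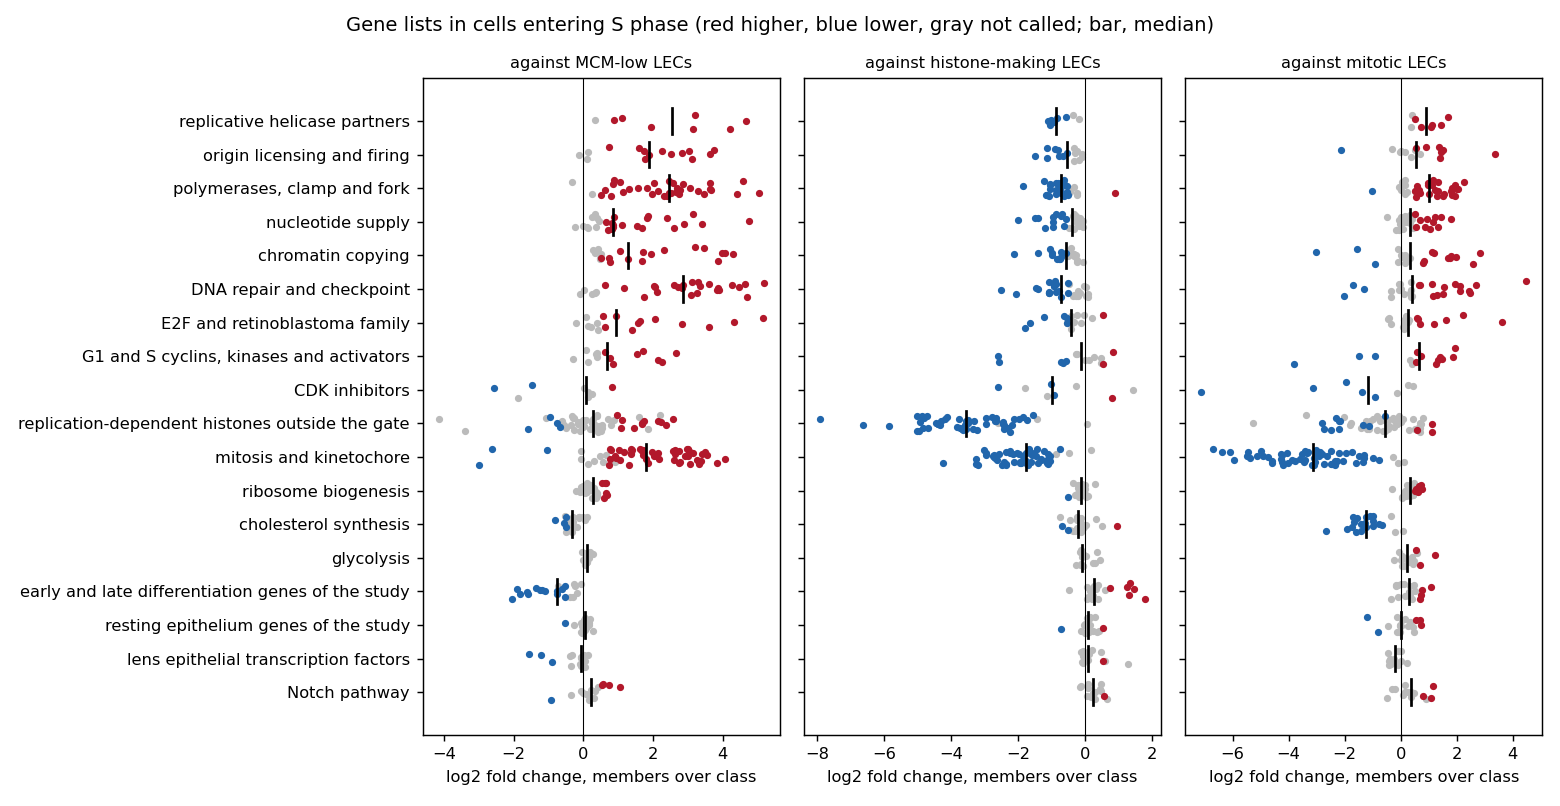
Log2 fold change of members over MCM-low, histone-making and mitotic LECs (x axes) for the tested genes of 18 lists (y axis), 1 point per gene, colored by call, with bars at list medians. Replication lists lay to the right against MCM-low and mitotic LECs and to the left against histone-making LECs. The cholesterol list lay farther to the left against mitotic LECs (median -1.26) than against MCM-low or histone-making LECs. Against mitotic LECs the list of mitotic and kinetochore genes lay farther to the left still, with a median of -3.12.

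Histone-making LECs are cells with 4 or more histone UMIs, a transcript class that accumulates while DNA is copied. Against them, members had lower levels of most replication genes, by smaller amounts. The rule capped histone UMIs in members, while histone-making LECs needed 4 or more. The direction of genes transcribed together with histone genes therefore follows in part from the choice of cells, and their sizes are given as a description. Of 12744 genes, 185 were higher in members (1.45%) and 598 lower (4.69%). The median over all genes was -0.0066. Counts of higher genes varied with the processing: 94 with DESeq2, 69 without the pool as a block, 115 after thinning and 109 with at least 8 helicase and cyclin E UMIs.

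Other histone genes were lower in members, a description that the cap on 3 of them sets in part. Of 53 tested, 50 were lower and 0 higher, with a median of -3.56. Hist1h2ac had 4.85 and 2.30 CPM in members against 82.5 and 112 in histone-making LECs, and Hist1h2bc 19.9 and 22.5 against 329 and 562. Of 61 mitotic genes, 58 were lower and 0 higher (median -1.78), among them Nusap1, a spindle protein, at 3.29 and 3.25 CPM against 73.7 and 52.7, and Mki67 at 25.1 and 17.8 against 186 and 158.

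The replication genes differed in their level in members relative to histone-making LECs. Levels were expressed as a percent of the level in histone-making LECs of the same pool. Some genes of DNA building blocks were among the lowest, while others of the nucleotide list stood higher. Among the latter were Dut at 52.4% and 51.4%, Dtymk at 68.9% and 66.1% and Paics at 66.9% and 75.5%. Rrm2 stood at 27.1% and 22.6%, Tyms at 38.2% and 33.4%, Tk1 at 37.5% and 37.8% and Rrm1 at 43.8% and 43.7%. Pclaf stood at 29.7% and 25.6%, and Fbxo5 (Emi1, an inhibitor of the anaphase-promoting complex) at 19.1% and 14.5%. Pcna, at 194 and 216 CPM against 381 and 466, was at 51.0% and 46.4%. Toward the other end stood Dtl at 75.4% and 68.2% and Hells (a chromatin remodeler) at 82.0% and 76.8%. The ring genes Mcm2, Mcm4, Mcm5, Mcm6 and Mcm7 stood at 77.5 to 94.6%, and Mcm3 at 112% and 93.2%. Of the other rule genes, Gins2 stood at 107% and 92.8% and Cdc6 at 101% and 69.5%. The cyclin E genes were lower, Ccne2 at 75.1% and 45.6% and Ccne1 at 66.5% and 51.4%. The rule demanded helicase and cyclin E UMIs of members and not of histone-making cells.

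**Figure D4:**
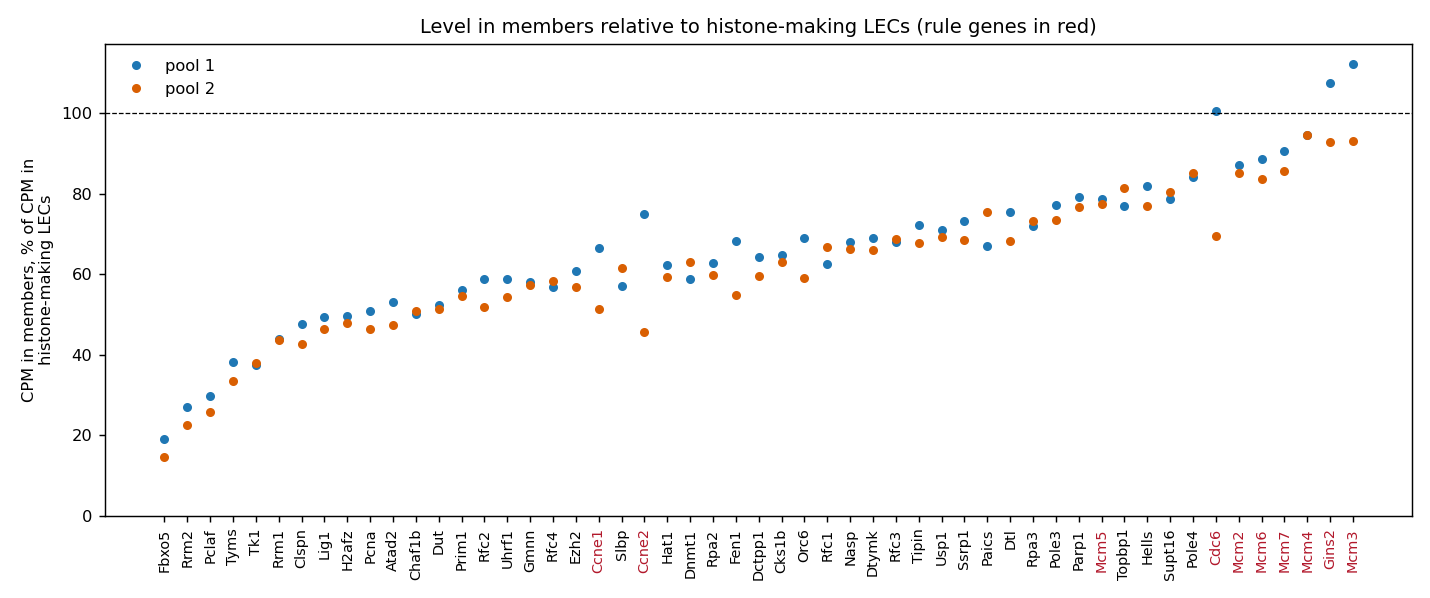
CPM in members as a percent of CPM in histone-making LECs (y axis) for the 10 rule genes (red names) and the genes of the replication lists that were called higher than in MCM-low LECs and had at least 100 CPM in histone-making LECs (x axis, ordered by mean, 1 gene not drawn), 1 point per pool. Values ran from 14.5% for Fbxo5 in pool 2 to 112% for Mcm3 in pool 1, and the pools lay close for most genes.

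The fit of single genes gave sizes and errors, with the limit that direction follows in part from the histone cap. Rrm2 was lower in members by a log2 fold change of -2.02 (SE 0.07), Pclaf by -1.86 (SE 0.07), Tyms by -1.49 (SE 0.07) and Tk1 by -1.41 (SE 0.07). Pcna was lower by -1.05 (SE 0.06) and Uhrf1 by -0.83 (SE 0.07), and Uhrf1 did not pass after thinning (-0.39). Hells (-0.34, SE 0.07), Cdt1 (-0.34, SE 0.10) and Dtl (-0.48, SE 0.08) did not reach the size needed for a call. Ung had 88.8 and 83.4 CPM in members against 72.5 and 95.9, a log2 fold change of 0.02 (SE 0.11), and its ranges overlapped, while after thinning it passed at 0.71. Some small differences changed sign after thinning, which also changed the cells of each class. Histone-making LECs went from 396 and 434 cells to 599 and 675, and members from 718 and 784 to 494 and 482. After thinning to 5000 UMIs, with the rule applied to the thinned counts, E2f1 moved from -0.53 to 0.09 and Hells from -0.34 to 0.16.

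By list, 29 of 35 fork genes were lower in members than in histone-making LECs and 1 was higher (median -0.71), 12 of 27 nucleotide genes were lower (median -0.39), 8 of 15 licensing genes (median -0.54), 6 of 8 helicase partners (median -0.88), 11 of 21 chromatin genes (median -0.58) and 17 of 29 repair genes (median -0.72). Of 17 E2F family genes, 6 were lower and 1 higher, E2f5 (39.3 and 42.6 CPM against 34.6 and 23.3), which did not pass after thinning, at 8 or more UMIs or without the pool as a block. Ccna2 had 16.3 and 11.9 CPM against 91.0 and 79.8 (log2 fold change -2.61, SE 0.11).

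A smaller set stood higher in members than in histone-making LECs. Ccnd2 had 714 and 617 CPM in members against 389 and 357 (log2 fold change 0.83, SE 0.05, adjusted p = 4.88e-16 from the edgeR quasi-likelihood fit with Benjamini-Hochberg adjustment). Ccnd1 had 434 and 432 CPM against 295 and 332 (0.47, SE 0.05), under the size for a call, and passed after thinning at 0.63. Neat1, a nuclear long noncoding RNA, had 91.7 and 98.7 CPM against 62.5 and 44.2 (0.86, SE 0.12), and Zfp36, which promotes decay of messenger RNA, had 154 and 163 against 94.9 and 105 (0.67, SE 0.09). E130218I03Rik (1.07), Ogn (0.88), Maff (0.61) and Rcan1 (0.59) were also higher in both pools, though Maff did not pass after thinning or without the pool as a block, and Rcan1 not without that block. Of the 21 differentiation genes, 6 were called higher and 0 lower, namely Ccdc80, Adamtsl4, Rbm24, Abca4, Btbd17 and Nnat. All 6 changed sign after thinning, where barcodes under 5000 UMIs were left out and the rule was applied anew (from -0.296 for Ccdc80 to -0.847 for Rbm24), and at 8 or more helicase and cyclin E UMIs Ccdc80 alone of them passed. Among the members their level was highest in cells with 6 or 7 such UMIs, with Nnat in pool 2 as the exception. Abca4 stood at 35.0 and 31.7 CPM in those cells and at 6.48 and 6.61 in cells with 11 and over. Maf had 243 and 204 CPM against 153 and 153 (0.54, SE 0.07). Maf did not pass within 6000 to 12000 UMIs, after thinning or at 8 or more helicase and cyclin E UMIs. Of 8 mural genes tested 2 were called higher, Rgs5 (23.0 and 8.94 CPM against 3.03 and 2.30) and Mgp (log2 fold change 2.85, SE 0.59), and both changed sign after thinning and without the highest doublet scores. The summed mural genes stood at 409 and 381 CPM against 313 and 305 in histone-making LECs, and the fibroblast genes at 104 and 119 against 70.2 and 83.5. Their part in these differences was not tested.

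Cdkn1c had 817 and 666 CPM in members against 453 and 393 in histone-making LECs (log2 fold change 0.81, SE 0.08). With at least 8 helicase and cyclin E UMIs the difference was 0.21 and did not pass, and after thinning it was -0.17. The hemoglobin genes Hba-a1 (22.7 and 89.9 CPM against 1.21 and 0.511) and Hbb-bs (81.3 and 380 against 7.28 and 5.88) were called higher, with SEs of 1.19 and 0.99 log2 units, and nearly all of their UMIs in members lay in the 5 cells named above. They did not pass within 6000 to 12000 UMIs or after thinning.

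Against mitotic LECs, members had more E2f1, Ung, Cdt1 and Hells and less of mitotic and cholesterol genes. The rule demanded helicase and cyclin E UMIs of members and not of mitotic LECs. The direction of genes transcribed together with these therefore follows in part from the choice of cells, and their sizes are given as a description. Of 15 licensing genes 7 were higher and 1 lower, and of 14 genes of the G1 to S transition 9 were higher and 3 lower. Of 12744 genes, 1121 were higher in members (8.80%) and 914 lower (7.17%), and the median over all genes was 0.0053. E2f1 had 52.4 and 51.5 CPM in members against 4.26 and 4.22 (log2 fold change 3.61, SE 0.16, adjusted p = 2.74e-20 from the edgeR quasi-likelihood fit with Benjamini-Hochberg adjustment). Ung had 88.8 and 83.4 CPM against 1.93 and 5.63 (4.47, SE 0.19). Cdt1, which is kept from acting after S phase, had 53.3 and 48.0 CPM against 4.26 and 5.45 (3.37, SE 0.15). Hells (2.82, SE 0.10), Chaf1b (2.58, SE 0.13), Dtl (2.45, SE 0.11) and Rfc3, a clamp loader subunit (2.03, SE 0.10), were higher as well. The largest rises at 50 CPM or more were those of the hemoglobin genes Hbb-bs (5.48, SE 0.92) and Hba-a1 (5.02, SE 0.89). Nearly all of their UMIs in members lay in the few cells named above, and neither gene passed within 6000 to 12000 UMIs.

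Other replication genes differed less between these classes. Pclaf had 254 and 211 CPM in members against 201 and 219 in mitotic LECs, Tyms had 88.1 and 72.2 against 81.0 and 76.5 and Tk1 had 77.7 and 80.1 against 89.9 and 86.7, and none of the 3 passed, though Pclaf did after thinning (0.64). Fork genes were higher in 26 of 35 cases and lower in 1 (median 1.01), helicase partners in 6 of 8, licensing genes in 7 of 15 with 1 lower, and nucleotide genes in 11 of 27. Dbf4, the activator of the Cdc7 kinase, was the lower licensing gene (29.9 and 27.4 CPM against 129 and 123, log2 fold change -2.14).

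The D cyclins also stood higher in members than in mitotic LECs. Ccnd2 had 714 and 617 CPM against 195 and 154 (log2 fold change 1.93, SE 0.05) and Ccnd1 434 and 432 against 176 and 184 (1.26, SE 0.05). Of the 8 genes named as kinase inhibitors, 5 were lower in members and 0 higher, Cdkn3 included. Among them were Cdkn1b at 43.3 and 46.5 CPM against 83.2 and 86.2 (-0.92, SE 0.09) and Cdkn2c at 20.4 and 20.7 against 83.0 and 77.1 (-1.95, SE 0.10). Cdkn1c, at 817 and 666 CPM against 653 and 598, did not pass, and its direction turned after thinning (-0.82).

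Of 61 mitotic genes, 58 were lower in members than in mitotic LECs and 0 higher (median -3.12), a direction that the cap on 6 such genes sets in part. Cenpa had 5.19 and 5.29 CPM against 535 and 557 (log2 fold change -6.71, SE 0.11), and Ccnb2 had 3.29 and 2.17 against 204 and 235 (-6.38, SE 0.13). The rule used no cholesterol gene. Of 22 cholesterol synthesis and uptake genes, 19 were lower in members and 0 higher (median -1.26). Msmo1, a sterol oxidase, had 28.6 and 20.3 CPM in members against 98.5 and 83.9 (log2 fold change -1.91, SE 0.11). Hmgcs1, the synthase that feeds the pathway, had 53.0 and 42.6 CPM against 155 and 153 (-1.70, SE 0.08). Of 16 glycolysis genes, 3 were higher in members, among them Aldoa, aldolase A, at 408 and 391 CPM against 172 and 171 (1.22, SE 0.05).

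The members were not uniform. Of the 1502 cells, 973 held 0 UMIs of the 3 histone genes, 353 held 1, 124 held 2 and 52 held 3, and 1020 held 0 of the 6 mitotic genes. Grouped by histone UMIs (0, 1, and 2 to 3, without TMM scaling), Pclaf stood at 183, 369 and 623 CPM in pool 1 and at 151, 277 and 464 in pool 2. Rrm2 stood at 69.5, 161 and 260 CPM in pool 1 and at 63.6, 103 and 164 in pool 2. Both climbed at each step in each pool. Ccna2 did too, from 8.80 to 54.4 CPM and from 7.40 to 31.2, and Uhrf1 from 96.5 to 191 and from 95.1 to 193. These steps use genes of the rule to group the cells, so they are described without a test.

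Mcm6 and Hells changed less along the same groups. The rule counts Mcm6 and demands at least 6 helicase and cyclin E UMIs in every group, so the level of Mcm6 is set in part by that floor. Mcm10, a helicase partner outside the rule, went from 23.6 to 65.9 CPM in pool 1 and from 20.1 to 41.3 in pool 2. Mcm6 stood at 202, 230 and 221 CPM in pool 1 and at 190, 205 and 200 in pool 2, and Hells at 125, 157 and 163 in pool 1 and at 131, 151 and 139 in pool 2. Ccnd2 went the other way, from 811 to 667 CPM and from 683 to 565. Cdkn1c was lowest in the group with 2 to 3 histone UMIs, at 527 and 385 CPM against 987 and 693 in cells with 0. Median depths of the 3 groups were 6878, 6887.5 and 7120 UMIs in pool 1 and 8361, 8617 and 8992 in pool 2.

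**Figure D5:**
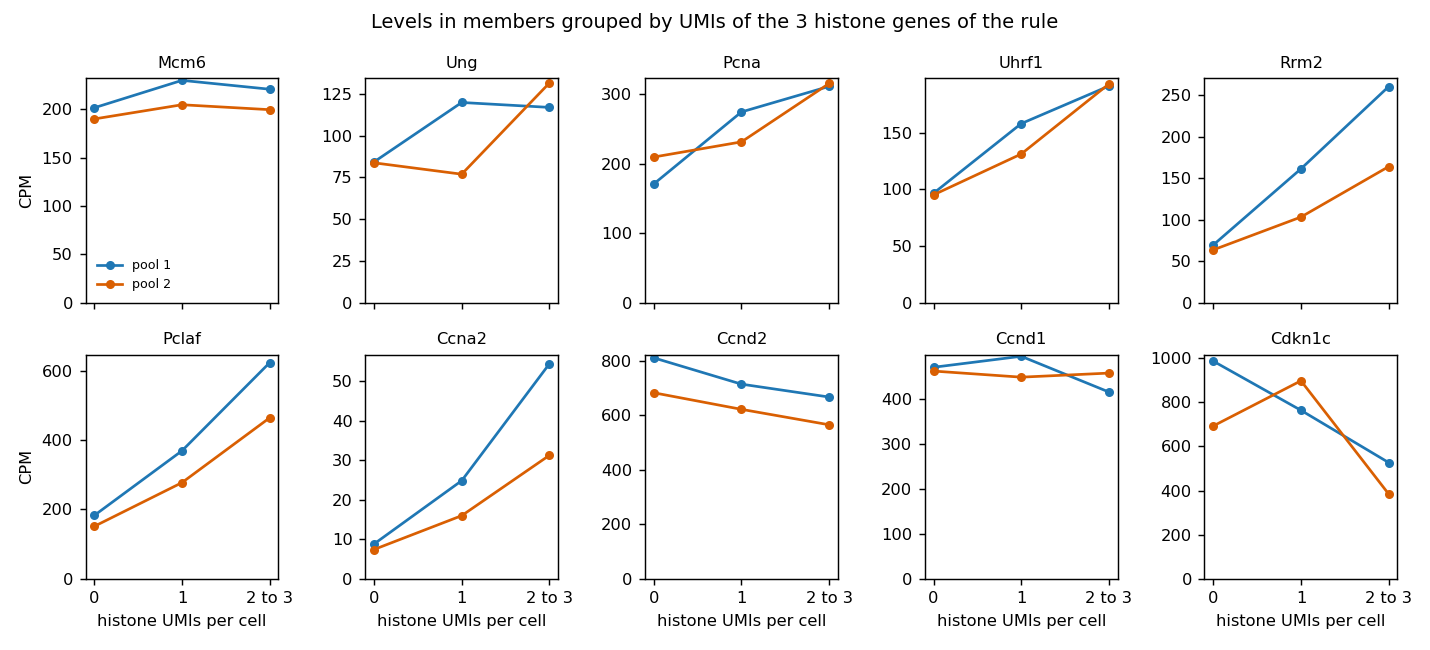
CPM (y axes, each from 0) of 10 genes in members with 0, 1, or 2 to 3 UMIs of the 3 histone genes (x axes), 1 line per pool. Rrm2, Pclaf, Ccna2, Uhrf1 and Pcna climbed in both pools, Mcm6 and Ccnd1 changed less, and Ccnd2 and Cdkn1c ended below their starting level.

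Cdkn1c was highest in the members with 6 or 7 helicase and cyclin E UMIs. It stood at 1591 and 1376 CPM in cells with 6 or 7 such UMIs, at 532 and 689 in cells with 8 to 10 and at 591 and 371 in cells with 11 and over. MCM-low LECs stood at 1817 and 2274 CPM, on the scale with TMM factors. Rrm2 went from 40.5 and 19.9 CPM at 6 or 7 UMIs to 168 and 132 at 11 and over, and Pcna from 147 and 140 to 266 and 287. Ccnd1 held between 425 and 514 CPM in every group of both pools.

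Genes outside the rule seldom stood highest in members. Of 2598 such genes at 50 CPM or more in members, 94 were above every other class in both pools and 0 were more than 1.5 times above. The 5 with the largest ratio to the next class, taking the lower of the 2 pools, were Ccnd1, at 1.37 and 1.27 times the highest other class, Hes5 at 1.29 and 1.19, Cyp4v3 at 1.19 and 1.15, Slc6a15 at 1.24 and 1.11, and Daam2 at 1.11 and 1.27. Daam2, for example, had 152 and 165 CPM in members, against 137 and 128 in histone-making LECs and 131 and 126 in MCM-low LECs. Cyp4v3 had 53.8 and 48.2 CPM against 45.4 and 41.9 in MCM-low LECs, and Slc6a15, an amino acid transporter, 49.3 and 52.3 against 39.7 and 47.0 in histone-making LECs. The measure was the ratio of CPM in members to the highest CPM of any other class, over 6 classes in 2 pools.

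Promoters, taken as 250 bases before and 50 after the RefSeq start, were searched for the same 4 letter strings on both strands. They occurred in 3.29% of the promoters of 17492 protein-coding genes and in 4.89% of those of 9390 tested genes. Among genes higher in members than in MCM-low LECs, 119 of 780 matched genes had a match (15.3%), and among genes lower in members 6 of 312 (1.92%). Against histone-making LECs the higher genes had 1 of 134 (0.746%) and the lower genes 63 of 415 (15.2%). Against mitotic LECs the shares were 7.90% of higher and 5.04% of lower genes. Of the 10 rule genes, 7 had an entry and 5 of those a match: Mcm3, Mcm5, Mcm6, Mcm7 and Cdc6. Ccne2, Gins2 and Mcm4 had no entry. In the lists, 10 of 29 fork genes and 7 of 18 chromatin genes had a match, against 1 of 25 nucleotide supply genes and 0 of 16 cholesterol genes. The strings overlap one another in part, and no match says only that these letters were not in the window.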

How the data were processed

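Single-cell RNA libraries of 2 pools of lens epithelium (postnatal day 2, wild type) were used. Per the labels and the submitters' processing notes, the authors aligned reads to mm10 with Cell Ranger 6.1.1 and deposited whole-number UMI counts per gene and barcode, not normalized.

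Members, classes and gene lists were chosen with earlier results of these data known. Barcodes were filtered and classed by raw counts as the report states. UMIs were summed per class and pool (12 sums) and fitted in edgeR 4.0.16 (R 4.3.3) with TMM factors, filterByExpr, the pool as a block and the quasi-likelihood test, with Benjamini-Hochberg adjustment over 12744 genes. A call needed an adjusted p under 0.05 and a log2 fold change of at least 0.5. Genes of the rule and mitochondrial genes stayed in library sizes and out of tests. The 2 pools are separate samples of pups, and cells are not replicates. The p-values rest on the spread of all 12 sums around the fit, with 5 residual degrees of freedom, and on dispersions shared across genes. They do not measure how 1 class difference varies between the 2 pools alone. The genes tested were counted in the same cells as the rule's genes, so they share each cell's depth, and alternatives therefore include a window of 6000 to 12000 UMIs and thinning to 5000 UMIs, which left out 2821 barcodes. Sums of 1 pool come from the same pups, which is where the pairing comes from.

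Doublets were scored with Scrublet in scanpy 1.11.5 and kept in the main counts, with the top 8% left out as an alternative. On simulated counts for members against MCM-low LECs with 200 genes changed before the filter and 12522 genes tested, 76.3% of changes of 1 and 95% of changes of 2 log2 units were recovered, with 1 false call among 12325 unchanged genes. The simulated means of members and compared classes did not differ between pools, and counts were drawn from the trended dispersion, without spread of single genes. These rates therefore check the fit and do not measure error rates in the real data. Other alternatives were DESeq2 1.42.0, its size factors in edgeR, no filter, no pool block, at least 8 helicase and cyclin E UMIs, at most 2 helicase and cyclin E UMIs in MCM-low LECs, barcodes under 1% mitochondrial UMIs left out, only the 2 classes compared, and each pool left out. Named genes were all rule genes, the 10 largest rises and falls per comparison among called genes at 50 CPM or more with 1 direction in both pools, and members of the lists. The 5 genes with the largest ratio of members to the highest other class were named as well. Promoters come from RefSeq (GRCm38.p6), gene positions from GENCODE vM21. Python 3.11.15, NumPy 2.4.6, SciPy 1.17.1, pandas 2.3.3 and matplotlib 3.10.9 were used. Results of a few listed genes are not reported here.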

Additional observations from a re-analysis of the deposited data

How the results depend on the processing

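The share of members, 8.14% as the mean of the pools, was 11.4% within 6000 to 12000 UMIs, and between 6.52% and 9.76% with either pool left out. Of the counts of called genes, those lower in members than in MCM-low LECs (432) were 190 with DESeq2 and 259 with no pool block, and those higher than in histone-making LECs (185) were 94 with DESeq2, 69 with no pool block, 115 after thinning and 109 at 8 or more helicase and cyclin E UMIs. The causes were not tested. Every other count of called genes stayed within 1.5 times its main value under the alternatives run. With a pool left out no residual degrees of freedom remained, so only log2 ratios were computed.

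Over 205 gene comparisons and 2570 values under the alternatives, 61 lost the call, 12 gained it and 33 changed sign. The other 2464 kept direction and, except with a pool left out, side of the threshold. With a pool left out only direction was compared, and for either pool 202 values kept it and 3 changed sign. Against MCM-low LECs, values within 6000 to 12000 UMIs were -0.023 for Ccnd2, -0.052 for Orc3, -0.03 for Orc5 and -0.013 for Rbl2, and after thinning -0.006 for E2f4, -0.272 for Rbl2 and 0.063 for Mdm2. Against histone-making LECs, values after thinning were -0.17 for Cdkn1c, 0.087 for E2f1, 0.16 for Hells, -0.296 for Ccdc80, -0.46 for Adamtsl4, -0.847 for Rbm24, -0.612 for Abca4, -0.376 for Btbd17, -0.567 for Nnat, -0.602 for Rgs5 and -0.462 for Mgp, and without the highest doublet scores -0.284 for Rgs5 and -0.188 for Mgp. Against mitotic LECs, Tyms was at -0.022 in that UMI window and -0.012 without the highest doublet scores, Tk1 at 0.209 after thinning and 0.116 at 8 or more UMIs, and Cdkn1c at -0.16 in the window, -0.82 after thinning and -0.354 at 8 or more UMIs. With 1 pool left out, the log2 ratio ran from -0.332 to 0.079 for Orc4, from -0.049 to 0.305 for Orc5 and from -0.048 to 0.282 for E2f4 against MCM-low LECs, from -0.199 to 0.289 for Ung against histone-making LECs, and from -0.058 to 0.333 for Pclaf and from -0.082 to 0.119 for Tyms against mitotic LECs.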
